A study of Zea mays with 12 samples.

Results

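The genes described here move sucrose across the plasma membrane of maize cells or split it inside and outside them. They are 10 genes chosen by their identifiers: the sucrose exporters SWEET13a (GRMZM2G173669), SWEET13b (GRMZM2G021706) and SWEET13c (GRMZM2G179349), the sucrose symporter sut1 (GRMZM2G034302), the sucrose synthases sus1 (GRMZM2G152908, described in the deposited table as sucrose synthase 2) and sus2 (GRMZM2G318780), the cell wall invertases incw1 (GRMZM2G139300) and incw3 (GRMZM2G123633), and the vacuolar invertases ivr2 (GRMZM2G089836) and ivr1 (GRMZM2G394450). All 10 are present in a table of 194389 features, of which 29723 carry an identifier of a maize gene. They were measured in the stem of the inbred line PB130, which the study calls resistant to the stem borer *Sesamia nonagrioides*, in plants grown in a greenhouse. A total of 12 libraries, 3 for each of 4 treatments, came from an undamaged piece of the internode under the ear at day 15. Control plants were untreated, larva plants carried *S. nonagrioides* larvae between leaf sheath and stem, wounding plants were scratched with a scalpel on the leaf sheath and given phosphate buffer, and regurgitate plants had the same wounds with larval regurgitate in that buffer. Wounds were renewed every other day, so the regurgitate group is a wounded group too, and the control and larva groups carried no scalpel wounds. All groups share 1 genotype, and the sources differ on how many plants stood behind a treatment, so it is not known whether each library is 1 plant.

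Sucrose made in leaves is the form in which maize carries carbon to stem, ear and root. SWEET proteins let it out of cells along its gradient, and SUT symporters use the proton gradient to load it into the phloem. In the tissue that receives it, sucrose synthase splits it with UDP into UDP-glucose and fructose, a reaction that can run backwards, while invertases split it irreversibly into glucose and fructose, in the cell wall or in the vacuole. Maize stems store sucrose, and these enzymes set how much of it is kept or used.

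The libraries were made by massive analysis of cDNA 3′ ends (MACE), in which a transcript yields a single fragment next to its poly-A tail. Levels are therefore given as CPM, the counts of a gene scaled to a fixed total of counts on maize genes after TMM scaling, a level per transcript that can be set side by side between genes without a correction for length. Library totals ran from 5651382 to 10056972 counts. The share on maize genes was 87.5 to 89.7% in control, 84.9 to 89.1% in larva and 58.4 to 74.4% in wounding libraries, and 72.8, 44.2 and 93.1% in regurgitate libraries 1, 2 and 3. Much of the remainder lay on assembled contigs. Contigs that matched *Gibberella* or *Fusarium*, fungi that live on maize, held 0.148 to 0.269% of the counts of control libraries, 2.93, 0.122 and 0.132% in larva, 9.10, 19.4 and 5.62% in wounding and 2.81, 11.2 and 0.0183% in regurgitate libraries. Fungal counts were thus high in all wounding libraries, regurgitate libraries 1 and 2 and larva library 1. They were low in regurgitate library 3 and in larva libraries 2 and 3. In the wounding group the parts of wound and fungus cannot be told apart. Larva libraries 2 and 3 were closer to each other than any other pair of a group, with a chi-square per degree of freedom of 1.55 against 16.6 to 67.8 in the other 11 pairs. They still differed beyond counting noise and were kept as separate libraries, and their sum was tried as an alternative. No source says what else these libraries shared.

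Between wounding and control plants SWEET13a, sus1, sus2, incw1 and ivr1 differed, and no member did detectably between larva and control plants. Under edgeR's quasi-likelihood test with Benjamini-Hochberg adjustment over all genes tested, 5 of 9 tested members were called between wounding and control plants, where 38.8% of all 19166 genes tested were called. SWEET13a, sus2, incw1 and ivr1 rose (4 of 9, where 19.6% of all genes rose), and sus1 fell (19.3% of all genes fell). DESeq2 called 6 members, the same 5 and ivr2, and 41.8% of all genes, and in 6 members the groups did not overlap, as for 55.1% of all genes. Between larva and control plants 0 of 8 tested members were called, and 0% of all genes. At an unadjusted p under 0.05 edgeR gave 0 members and 9.78% of all genes, and DESeq2 called 0 members and 1.39% of all genes. In bulk tissue, fewer cells of a type and less RNA per cell cannot be told apart for any of these values.

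**Figure D1:**
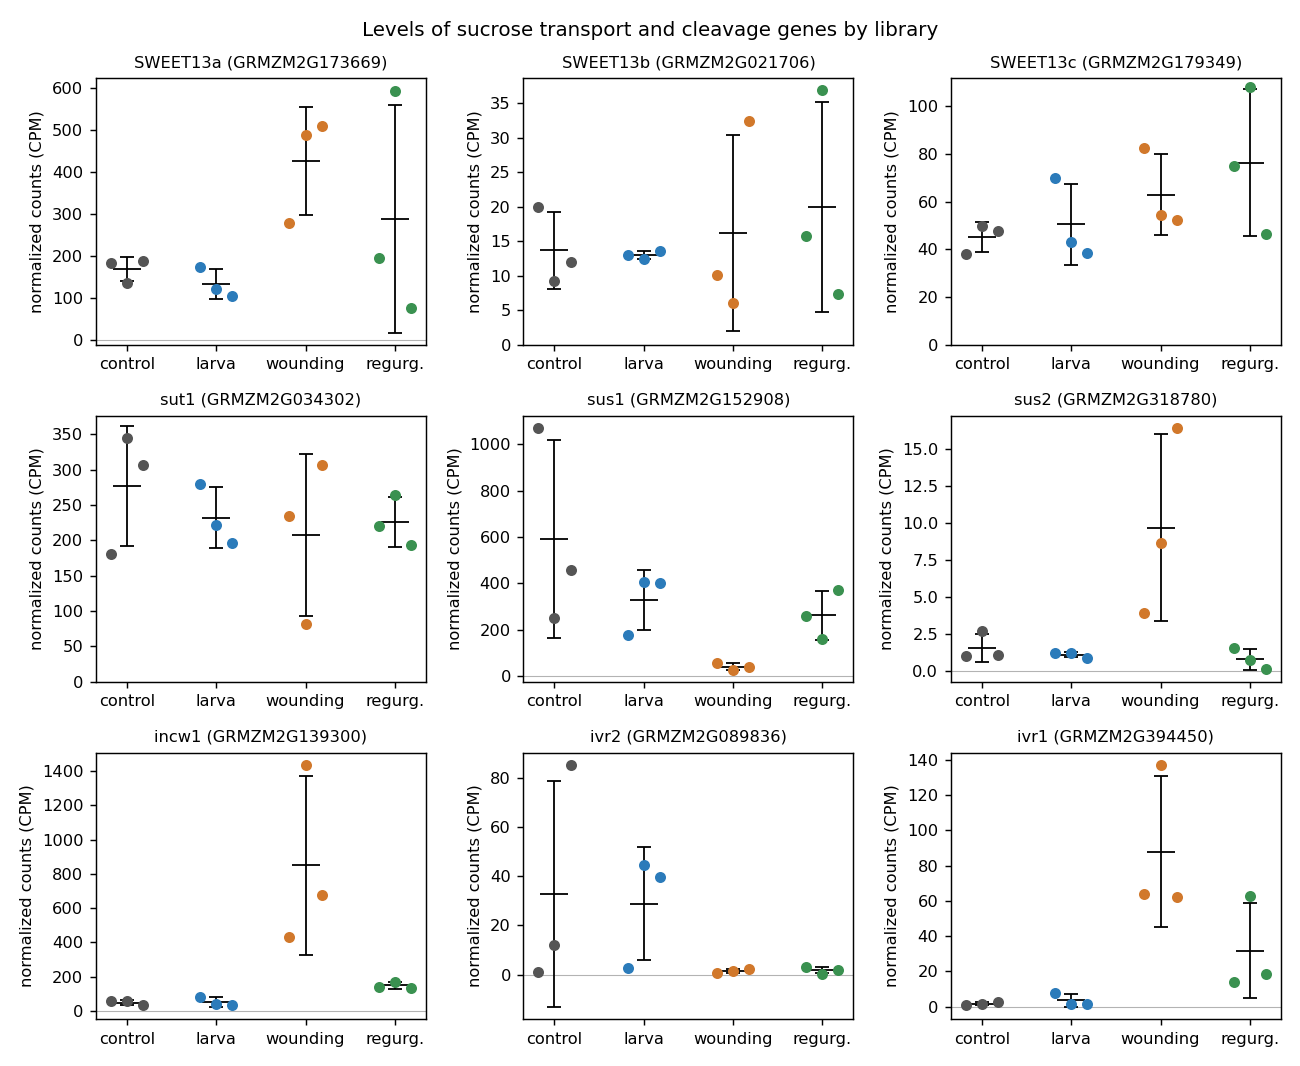
Level of 9 of the genes (CPM, counts scaled to a fixed total on maize genes; incw3, near 0, is not drawn) in the 12 libraries, by treatment; points are libraries, horizontal lines the mean and whiskers the SD of 3, and each panel has its own axis. The 3 wounding libraries of incw1 sit between 433 and 1437 CPM, above every other library, and those of sus1 between 28.0 and 55.2, below every other library.

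The SWEET13 genes encode plasma membrane exporters that bring sucrose into the cell wall space next to the phloem, and SWEET13a was the most abundant of the 3. SWEET13a measured 183, 137 and 190 CPM in control, 174, 122 and 107 in larva, 279, 490 and 510 in wounding and 196, 594 and 78.2 in regurgitate libraries. Every wounding library exceeded every control and larva library, while the regurgitate libraries spanned the whole range, the second of them the highest and the third the lowest of all 12. SWEET13a rose by a log2 fold change of 1.34 (SE 0.29, FDR 0.0115 by edgeR) in wounding against control plants, a 2.53-fold difference. The call did not hold when all 12 libraries were fitted together (FDR 0.085). The test over the 4 treatments gave an FDR of 0.107, and 0.00945 without regurgitate library 2 or 0.017 without regurgitate library 3, the libraries at its extremes.

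SWEET13b was the least abundant of the exporters, at 19.9, 9.18 and 11.99 CPM in control, 13.0, 12.4 and 13.6 in larva, 10.1, 6.04 and 32.4 in wounding and 15.8, 36.9 and 7.33 in regurgitate libraries. Its groups overlapped in every comparison. SWEET13c lay between the other exporters, at 37.9, 49.9 and 47.7 CPM in control, 69.9, 43.2 and 38.5 in larva, 82.4, 54.4 and 52.2 in wounding and 74.8, 108 and 46.4 in regurgitate libraries. The wounding libraries of SWEET13c stood just above the control libraries, a log2 difference of 0.49 (SE 0.23) that did not pass the test (FDR 0.133 by edgeR). Reads could match up to 10 places in the genome, so counts of these close paralogs may have been divided among them, and the values of each are uncertain to that extent.

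Among the SWEET13 counts, SWEET13a took 74.0% ± 3.59 in control, 67.9% ± 0.792 in larva, 83.3% ± 7.28 in wounding and 69.3% ± 10.6 in regurgitate libraries (mean ± SD, n = 3 each). The range in wounding libraries, 75.1 to 89.0%, overlapped that in control libraries, 69.8 to 76.1%. With 3 libraries against 3 an exact permutation test cannot go below p = 0.1, so these shares are given as values with no test.

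The symporter sut1 loads sucrose into the phloem of maize, and over the 12 libraries its highest level was 4.23 times its lowest. That ratio was 2.85 for SWEET13c, 6.10 for SWEET13b, 7.60 for SWEET13a and 38.2 for sus1. Levels of sut1 were 181, 344 and 306 CPM in control, 279, 221 and 196 in larva, 234, 81.3 and 306 in wounding and 220, 264 and 193 in regurgitate libraries. All groups overlapped, and 1 wounding library was the lowest of the 12. Its mean was highest in control (277 ± 85.1 CPM, SD, n = 3) and lowest in wounding plants (207 ± 115), a log2 difference of −0.41 (SE 0.48, FDR 0.522 by edgeR), and no neighbours in the order of means stood apart from each other.

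The sucrose synthase paralogs sus1 and sus2 differed in opposite directions between wounding and control plants. For sus1 the levels were 1071, 252 and 456 CPM in control, 179, 405 and 403 in larva, 55.2, 28.0 and 41.5 in wounding and 258, 160 and 369 in regurgitate libraries. Every wounding library lay below every other library, and the other 3 groups overlapped each other. Against control plants sus1 fell by 3.82 on the log2 scale with wounding (SE 0.59, FDR 0.00352 by edgeR), a 14.1-fold lower level. The first control library was the highest of all, and without any 1 library the log2 difference stayed between −4.19 and −3.07.

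For sus2 the levels were low: 0.994, 2.69 and 1.09 CPM in control, 1.21, 1.23 and 0.908 in larva, 3.94, 8.63 and 16.4 in wounding and 1.55, 0.730 and 0.150 in regurgitate libraries. The wounding libraries stood above all others, on 135 counts in all against 33 in control libraries. The rise with wounding was 2.61 on the log2 scale (SE 0.63, FDR 0.017 by edgeR), and it missed the threshold without control library 1 (FDR 0.051), control library 3 (0.0622) or wounding library 3 (0.0502). Of the sum of sus1 and sus2, sus2 made up 19.5% ± 11.4 in wounding libraries and 0.364 to 0.463% on average in the other groups.

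The third maize sucrose synthase, sh1 (GRMZM2G089713, a feature that the table joins to an assembled contig), is no member and is given for comparison. It averaged 536 ± 172 CPM in control, 413 ± 59.7 in larva, 1444 ± 295 in wounding and 1006 ± 155 in regurgitate libraries (SD, n = 3). Its rise with wounding was 1.44 on the log2 scale (SE 0.33, FDR 0.0144 by edgeR), and without control library 3 the FDR was 0.0504. Of the counts of the 3 genes, sus1 held 48.9% ± 10.2 in control, 43.0% ± 7.76 in larva, 20.8% ± 8.51 in regurgitate and 2.74% ± 0.437 in wounding libraries. The summed level of the 3 genes averaged 1131 CPM in control and 1495 CPM in wounding libraries, with ranges of 611 to 1772 and 1141 to 1701 that overlapped.

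**Figure D2:**
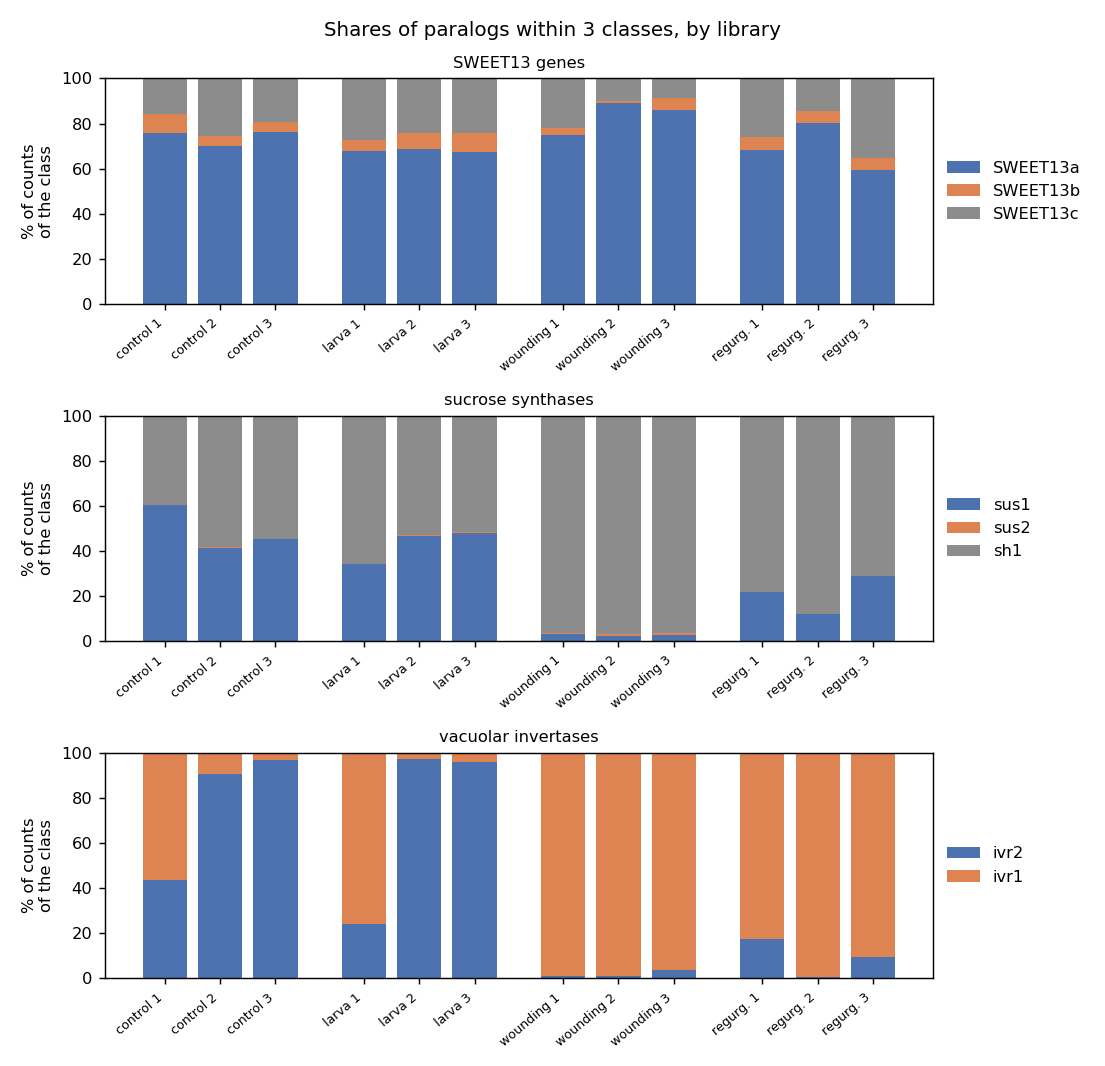
Stacked share of each paralog in the counts of its class (percent) in each of the 12 libraries, for SWEET13 genes, sucrose synthases and vacuolar invertases. In the class of sucrose synthases with sh1, sus1 falls from 41.2 to 60.4% in control libraries to 2.46 to 3.25% in wounding libraries. Among vacuolar invertases, ivr2 holds 24.0 to 97.1% in control and larva libraries and 0.578 to 17.3% in wounding and regurgitate libraries.

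Genes of low-oxygen metabolism were summed for comparison with sus1. Their summed level of 4 features, alcohol dehydrogenase 1 and pyruvate decarboxylases, was 536 to 4343 CPM in control (median 956), 614 to 1502 in larva, 310 to 610 in wounding and 271 to 1315 in regurgitate libraries. The ranges of control and wounding libraries overlapped, and the 4 features tested between them had a median log2 difference of −1.83. Of these 4, edgeR called 1 higher and 0 lower with wounding, where 19.6% of all genes rose and 19.3% fell. The highest of the 12, at 4343 CPM, was the control library in which sus1 was also highest. A list of 17 cellulose synthase features, read as wall-forming cells, ran from 579 to 1074 CPM in control, 454 to 662 in larva, 183 to 202 in wounding and 170 to 393 in regurgitate libraries. Between wounding and control plants edgeR called 12 of 15 tested cellulose synthase features lower and 0 higher, with a median log2 difference of −2.22. The part of these lists in the fall of sus1 was not tested. The summed level of 45 features of green cells overlapped between control (8344 to 14196 CPM) and wounding libraries (8466 to 12532). Between these groups edgeR called 2 of 41 tested higher and 6 lower with wounding, with a median log2 difference of −0.02. No deposited description named a phloem or sieve element protein, so the share of phloem could not be checked.

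**Figure D3:**
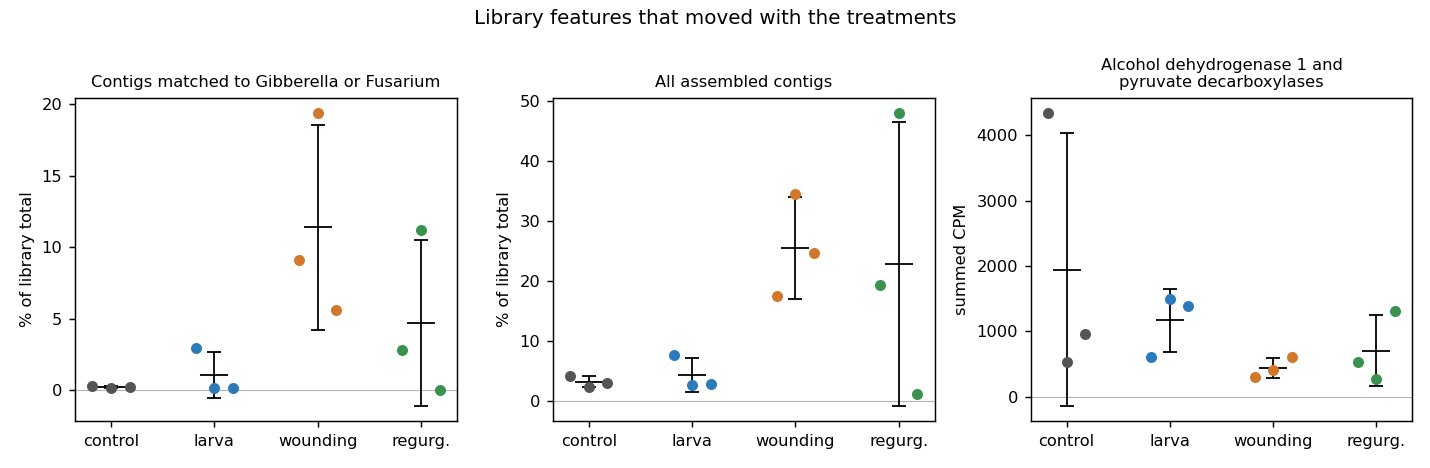
Per library and treatment, the percent of all counts on contigs matched to *Gibberella* or *Fusarium* (left), the percent on all assembled contigs (middle) and the summed level of alcohol dehydrogenase 1 and pyruvate decarboxylases in CPM (right); points are libraries, horizontal lines the mean and whiskers the SD of 3. Regurgitate library 2 has 48.0% of its counts on contigs and regurgitate library 3 has 1.03%, and the control library at 4343 CPM stands apart on the right.

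Cell wall invertase splits sucrose in the apoplast, where it draws more sucrose out of the phloem, and incw1 was the member of highest mean level in the wounding group. It measured 58.9, 55.6 and 32.3 CPM in control, 83.7, 38.4 and 32.9 in larva, 433, 1437 and 677 in wounding and 142, 171 and 134 in regurgitate libraries. The wounding libraries stood above the regurgitate libraries, which stood above all control and larva libraries, and those of control and larva plants overlapped. The rise with wounding was 4.13 on the log2 scale (SE 0.53, FDR 0.00195 by edgeR), a 17.5-fold difference, and without any 1 library it stayed between 3.53 and 4.44.

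The other member of the class, incw3, was barely detected. It had 0 counts in all control and larva libraries, 3, 2 and 0 in wounding and 0, 2 and 0 in regurgitate libraries. A count of 0 allows up to 3 counts, a floor for counting error only, so no difference between groups could be seen at this depth and no fold is given.

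Vacuolar invertases split stored sucrose, and the 2 genes had opposite orders of group means. For ivr2 the levels were 0.870, 12.03 and 85.4 CPM in control, 2.52, 44.5 and 39.6 in larva, 0.563, 1.51 and 2.44 in wounding and 2.89, 0.365 and 1.94 in regurgitate libraries. The first control library lay within the range of the wounding libraries and the first larva library just above it, so wounding and control overlapped. The log2 difference of −4.44 between wounding and control plants had an SE of 1.51 and missed the threshold (FDR 0.0536 by edgeR). DESeq2 called it (FDR 0.0009), and so did edgeR without control library 1 (FDR 0.0119). EdgeR also called it with contigs included in the fit (FDR 0.0476), with no filter (0.0389) and on all 12 libraries together (0.0366). With single libraries left out the FDR by edgeR ran from 0.0119 to 0.196. In the test over the 4 treatments ivr2 passed narrowly (FDR 0.0475), and the call was kept without control library 1 or 3 or larva library 1 and lost without any 1 of the other 9 (FDRs from 0.0158 to 0.109 over the 12).

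For ivr1, a feature that the table joins to 1 assembled contig, the levels were 1.12, 1.27 and 2.86 CPM in control, 8.001, 1.35 and 1.63 in larva, 64.0, 137 and 62.1 in wounding and 13.8, 62.8 and 18.6 in regurgitate libraries. Every wounding and regurgitate library exceeded every control and larva library, and the wounding and regurgitate groups overlapped. The rise with wounding of 5.65 on the log2 scale (SE 0.52, FDR 0.000788 by edgeR), a 50.1-fold difference, was the steepest of the members. Of the counts of both vacuolar genes, ivr2 held 43.8, 90.5 and 96.8% in control libraries and 24.0, 97.1 and 96.0% in larva libraries (for the first control library, on 16 counts, the 95% Wilson interval, for counting error only, is 23.1 to 66.8%), against 0.872 to 3.78% in wounding and 0.578 to 17.3% in regurgitate libraries.

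**Figure D4:**
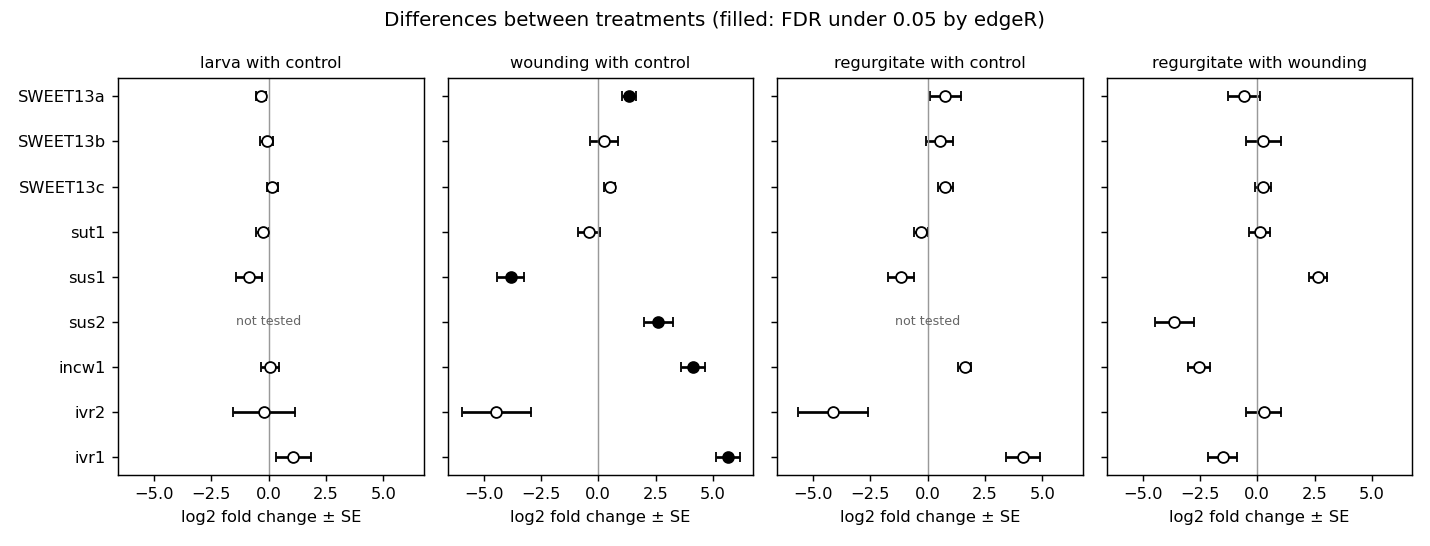
Log2 fold change of each tested member (edgeR, whiskers 1 SE) in 4 of the comparisons between treatments; filled points passed an FDR of 0.05, and sus2 was not tested in the comparisons of larva and of regurgitate plants with control plants. The values of wounding against control reach from −4.44 for ivr2 to 5.65 for ivr1, while those of larva against control stay between −0.86 and 1.07.

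The comparison of larva with control plants asks how the stem answered the insect itself. The 8 members tested had log2 fold changes between −0.86 (sus1, SE 0.56, FDR 0.706) and 1.07 (ivr1, SE 0.76, FDR 0.734 by edgeR), and all their groups overlapped, against 15.5% of all genes with groups that did not. Single libraries set both values. Without larva library 1 the log2 difference of ivr1 was −0.24, and without control library 1 that of sus1 was −0.11. Fungal contigs held more counts in larva library 1 than in the other larva libraries, and the part of fungus was not tested. For sus2 and incw3 counts were too few for the test.

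The comparison of regurgitate with wounding plants asks what the regurgitate added to a wound. None of 9 tested members passed edgeR's test, where 0.0602% of all genes did, and 3 had an unadjusted p under 0.05, as did 19.8% of all genes. The groups of those 3 did not overlap, as for 26.4% of all genes. Against wounding plants, sus1 was higher with regurgitate by 2.65 on the log2 scale (SE 0.40, FDR 0.0783), sus2 lower by a log2 difference of −3.62 (SE 0.86, FDR 0.0994) and incw1 lower by a log2 difference of −2.54 (SE 0.49, FDR 0.0843). DESeq2 called the same 3, where it called 8.93% of all genes, and so did edgeR on all 12 libraries together, a fit that called 1788 of all genes against 11. Without regurgitate library 2, in which fewest counts lay on maize genes, edgeR called sus1 (FDR 0.0374). These comparisons share the wounding libraries with that of wounding and control plants. The fungal share ran from 0.0183 to 11.2% in regurgitate and from 5.62 to 19.4% in wounding libraries, ranges that overlapped. Its part in these differences was not tested.

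Between regurgitate and control plants 0 of 8 tested members passed edgeR's test, where 1.28% of all genes did, and 3 had an unadjusted p under 0.05, as did 19.4% of all genes. The nearest were incw1, with a log2 difference of 1.60 (SE 0.28, FDR 0.0524), and ivr1, with 4.14 (SE 0.74, FDR 0.0592), and in both the groups did not overlap, as for 29.2% of all genes. DESeq2 called both and ivr2 (8.9% of all genes). Without regurgitate library 3 edgeR called ivr1 (FDR 0.0427).

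Between larva and wounding plants 6 of 9 tested members were called, 2 higher and 4 lower in larva plants, where 43.6% of all genes were called, 21.5% higher and 22.2% lower. In larva plants sus1 was higher by 2.98 (SE 0.40, FDR 0.00203) and ivr2 by 4.26 (SE 1.10, FDR 0.0188) on the log2 scale, and SWEET13a (−1.67), sus2 (−3.07), incw1 (−4.04) and ivr1 (−4.52) were lower, with FDRs from 0.00278 to 0.00589 by edgeR. The call of ivr2 was lost without larva library 2 (FDR 0.0511), wounding library 1 (0.059) or wounding library 2 (0.0613), or with larva libraries 2 and 3 summed (0.0502). DESeq2 called the same 6 members and 44.9% of all genes, and the groups of 6 members did not overlap, as for 59.2% of all genes. Between larva and regurgitate plants 0 of 8 tested members passed edgeR's test, against 1.26% of all genes. At an unadjusted p under 0.05 edgeR gave 3 members, incw1, ivr2 and ivr1 (20% of all genes), which DESeq2 called (8.69% of all genes). In 2 of them, incw1 and ivr1, the groups did not overlap, as for 31% of all genes, and without larva library 1 edgeR called incw1 (FDR 0.046).

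Over the 4 treatments together, 5 of 9 tested members were called by edgeR, where 33.9% of all genes were: incw1 (FDR 0.000325), ivr1 (0.00144), sus1 (0.00428), sus2 (0.00503) and ivr2 (0.0475). All 5 cleave sucrose, and 0 of the 4 transporters passed, numbers too small to set cleavage against transport. SWEET13a had an unadjusted p of 0.0495 by edgeR and was called by DESeq2 (FDR 0.0401). Among genes taken by their descriptions, edgeR called 5 of 11 tested sucrose synthesis and cleavage genes over the 4 treatments. Of other sugar transporters so taken it called 10 of 12 tested. DESeq2 called 6 members in this test and 45% of all genes. The larva response (larva against control plants) was also tested against the regurgitate response (regurgitate against wounding plants) as a contrast of its own. In it 0 of 9 tested members passed edgeR's test, against 1.15% of all genes. For sus1 the difference between the responses was −3.49 on the log2 scale (SE 0.76, FDR 0.0543) and for incw1 2.60 (SE 0.66, FDR 0.0833). At an unadjusted p under 0.05 edgeR gave 4 members and 17% of all genes, and DESeq2 called sus1 and incw1 (6.47% of all genes).

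The scaling of the libraries sets the zero of these values. With library totals in place of TMM the median log2 difference of all genes between wounding and control plants moved from −0.01 to −0.44, and the calls from 3747 higher and 3691 lower to 2366 higher and 6741 lower. Between larva and wounding plants that median moved from 0.01 to 0.40 and the calls from 4086 higher and 4216 lower to 6984 and 2707. The members called in either comparison kept their direction, and ivr2 was then also called between wounding and control plants (FDR 0.0356).

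Other genes of the pathway were taken from words in the deposited descriptions, 39 features in all. Between wounding and control plants 16 of 31 tested were called, 10 higher and 6 lower, where 38.8% of all genes were called, 19.6% higher and 19.3% lower. Among sucrose synthesis and cleavage genes, 3 of 10 tested rose and 1 fell, with a median log2 difference of −0.04 where that of all genes was −0.01. Those that rose were sh1, a further cell wall invertase (GRMZM2G119941) with a log2 difference of 1.75 (SE 0.33, FDR 0.00678), and a sucrose-phosphatase (GRMZM2G097641), the last enzyme of sucrose synthesis, with 3.51 (SE 0.35, FDR 0.00092) and a rise from 4.84 ± 2.27 to 55.6 ± 8.04 CPM (SD, n = 3).

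Of 4 further SWEET and sucrose transporter features only 1 had counts enough for the test, sucrose transporter 2 (GRMZM2G145107), at 27.8 ± 3.89 CPM in control and 31.9 ± 9.02 in wounding libraries, a log2 difference of 0.21 (FDR 0.514 by edgeR). Among other sugar transporters 6 of 12 tested rose and 3 fell with wounding, where 19.6% of all genes rose and 19.3% fell. Their median log2 difference was 0.59. This list was taken by words and also holds transporters of polyols and of nucleotide sugars. A polyol transporter (GRMZM2G138589) fell by 4.05 on the log2 scale (FDR 0.00149), from 46.8 ± 5.87 to 2.80 ± 2.14 CPM, and features described as nucleotide-sugar transporters, GRMZM5G842886 and GRMZM2G025236, rose by 1.46 (FDR 0.0039) and 0.80 (FDR 0.0202). The last of these was not called with library totals as the scaling (FDR 0.141) or with every feature, contigs included, in the fit (0.0779), nor without control library 2 (0.0528), control library 3 (0.0718), wounding library 2 (0.0523) or wounding library 3 (0.0528).

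Of 8 features that take hexoses or UDP-glucose onwards, 1 rose and 2 fell with wounding, where 19.6% of all genes rose and 19.3% fell. Their median log2 difference was −0.09. The list holds a phosphofructokinase (GRMZM2G059151), which works in glycolysis and not on free hexose, and it fell by 1.61 on the log2 scale (FDR 0.00357 by edgeR). Fructokinase-1 (GRMZM2G086845), which phosphorylates the fructose that sucrose cleavage frees, rose by 0.73 (FDR 0.0233), and was not called with library totals (FDR 0.219), with every feature in the fit (0.0917) or without control library 1 (FDR 0.069), control library 3 (0.0933) or wounding library 1 (0.0571). Hexokinase-1 (GRMZM2G051806) ranged from 2.72 to 35.8 CPM in control and from 38.9 to 247 CPM in wounding libraries (log2 difference 2.99, FDR 0.0778), and it was called by DESeq2 (FDR 0.00874), by edgeR on all 12 libraries (0.0366) and by edgeR without control library 1 (0.0161). The invertase inhibitor list held 1 feature, with counts too few for the test.

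The genes whose pattern over the 12 libraries was nearest to a member were found by the root mean square difference of log2 CPM, each centred on the mean of its gene. For SWEET13a these were GRMZM2G041269 (0.31), GRMZM2G044246 (0.34) and GRMZM2G044174 (0.35), all without a described function, out of 11413 genes compared. For sut1 they were GRMZM2G171644 (0.22), GRMZM2G319573 (0.26) and the nicotianamine synthase GRMZM2G050108 (0.27). For sus1 they were a RING zinc finger gene, GRMZM2G312078 (0.31), a VQ gene, GRMZM2G180262 (0.36), and GRMZM2G139250 (0.37).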

How the data were processed

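Stem RNA of 4 treatments (3 libraries each, day 15) was measured by MACE. The authors removed reads with the same barcode and sequence (TrueQuant), trimmed the rest with Cutadapt, and aligned them with Novoalign 3.00.05 to the ENSEMBL maize genome and then transcriptome, at up to 10 places per read; reads left over were assembled into contigs and matched to known proteins and transcripts. The deposited counts, whole reads per feature and library without normalization, are the start of every value here. The deposited group means and the authors' DESeq comparisons (p-values, FDRs, log2 fold changes) were not used. All 12 columns of counts were mapped by name, and 0 were left unmapped.

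Features with a maize gene identifier were tested with edgeR 4.0.16 (R 4.3.3): filterByExpr (minimum count 10, minimum total 15), TMM, quasi-likelihood F test on the 6 libraries of a pair or on all 12, Benjamini-Hochberg adjustment over all genes tested, threshold 0.05. DESeq2 1.42.0 was an alternative, beside other scalings, no filter, a replicate block, left-out libraries and larva libraries 2 and 3 summed. The tests were run on simulated counts first. Precision was limited by the spread between 3 libraries, which may be partly technical since the sources do not agree on the plants behind them. Gene symbols came from RefSeq (10 of 10 matched by identifier); its assembly, Zm-B73-REFERENCE-NAM-5.0, is not that of the table, so no coordinates are given.

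All members are named, and from each list up to 3 genes of smallest unadjusted p in the test over the 4 treatments. For SWEET13a, sut1 and sus1 the 3 genes of nearest pattern are named (prior count 2). The members and lists were chosen with earlier results of these data known. Deviations of libraries with the same replicate number correlated at 0.156 to 0.315 between regurgitate and wounding plants, in all 3 pairs, and from −0.236 to 0.208 in the other comparisons. Libraries of unlike number reached such values elsewhere (0.306 for wounding 1 with control 3, 0.247 for larva 1 with control 2). Between regurgitate and wounding plants their highest value was 0.110 (regurgitate 1 with wounding 3). The labels do not say that a number marks a shared plant or day.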

Additional observations from a re-analysis of the deposited data

Results flagged for a closer look

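Among assembled contigs outside the maize gene features, 11 were described as enzymes of sucrose synthesis or cleavage or as SWEET or sucrose transporters. In 3 of them the share of the library was over 10 times the highest control library, on 30 or more counts, in at least 2 libraries of a treatment, and each was highest as a share in regurgitate library 2. The first matched a *Gibberella* beta-fructofuranosidase and had 2, 0 and 0 counts in control, 20, 2 and 2 in larva, 96, 228 and 59 in wounding and 26, 175 and 0 in regurgitate libraries. The second matched another beta-fructofuranosidase of the same fungus, with 7, 2 and 3 counts in control, 85, 5 and 0 in larva, 224, 389 and 150 in wounding and 54, 372 and 0 in regurgitate libraries. Both are sucrose-cleaving enzymes of a fungus, and larva library 1 stood above larva libraries 2 and 3 in each.

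The third contig matched a maize SWEET sugar transporter. It had 4, 0 and 2 counts in control, 0, 1 and 1 in larva, 4, 4 and 3 in wounding and 123, 354 and 1 in regurgitate libraries. Regurgitate libraries 1 and 2 thus held it and the third did not, and the wounding libraries were at the level of control. The contigs were chosen after their counts were seen, no test was run on them, and the cause was not tested.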

How the results depend on the processing

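The calls of members kept their number within 1.5 times in the comparisons of larva with control (0), wounding with control (5), larva with wounding (6) and over the 4 treatments (5) under every alternative run. The members called were not always the same. With all 12 libraries, edgeR lost SWEET13a (FDR 0.085) and gained ivr2 (FDR 0.0366) between wounding and control plants. Between regurgitate and wounding plants 0 members became 3 with DESeq2, 1 with no filter, 3 with all 12 libraries, and 0 to 1 with single libraries left out (1 without regurgitate library 2). Between regurgitate and control plants 0 became 3 with DESeq2, 2 with no filter, 1 with all 12 libraries, and 0 to 1 with libraries left out (1 without regurgitate library 3). Between larva and regurgitate plants 0 became 3 with DESeq2 and 0 to 1 with libraries left out (1 without larva library 1). In the test of the larva against the regurgitate response 0 became 1 with library totals, 2 with DESeq2, 1 with no filter, and 0 to 1 with libraries left out (1 without control library 2 or without regurgitate library 2). Where a fit that gained members kept all libraries of a comparison, its calls over all genes rose too. In other fits they fell, as between regurgitate and wounding plants from 11 to 0 with library totals, every feature or the replicate block. Between regurgitate and wounding plants 11 became 1633 with DESeq2, 110 with no filter and 1788 with all 12 libraries. Between regurgitate and control plants 245 became 1707, 354 and 1190. Between larva and regurgitate plants 239 became 1647 with DESeq2. For the responses 233 became 307 with library totals, 1308 with DESeq2 and 259 with no filter. The cause of these moves was not tested.

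Directions turned, in the alternatives run, for genes that were not called in the comparison concerned. With library totals SWEET13b was at −0.17 between wounding and control plants and 0.071 between larva and wounding plants, SWEET13c at 0.058 in the latter, sucrose transporter 2 at −0.23 between wounding and control plants and SWEET13a at −0.0038 in the difference between the responses. With every feature, SWEET13c was at 0.020 between larva and wounding plants and sucrose transporter 2 at −0.048 between wounding and control plants, and with larva libraries 2 and 3 summed SWEET13c was at 0.027 in the difference between the responses. With the replicate block, incw1 was at −0.0075 and ivr2 at 0.58 between larva and control plants, and SWEET13b at −0.023 between wounding and control and 0.017 between larva and wounding plants. The block also called ivr2 between wounding and control plants (FDR 0.0272), and lost fructokinase-1 (GRMZM2G086845, FDR 0.0592) and GRMZM2G025236 (FDR 0.0561) there. Over the 4 treatments it lost ivr2 (FDR 0.0769). Between regurgitate and wounding plants it changed no call of a member and took the calls of all genes from 11 to 0.

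With single libraries left out, log2 differences between larva and control plants ran from −0.30 to 0.28 for SWEET13b, −0.14 to 0.30 for SWEET13c, −0.46 to 0.30 for incw1, −0.77 to 2.19 for ivr2 and −0.24 to 1.63 for ivr1. Between regurgitate and wounding plants they ran from −0.47 to 1.25 for SWEET13b, −0.044 to 0.55 for SWEET13c, −0.28 to 0.50 for sut1 and −0.18 to 0.77 for ivr2. Between wounding and control plants they ran from −0.74 to 0.65 for SWEET13b and −0.034 to 0.33 for sucrose transporter 2, and between regurgitate and control plants from −0.30 to 1.26 for SWEET13a and −0.25 to 0.96 for SWEET13b. Between larva and wounding plants they ran from −0.73 to 0.65 for SWEET13b and −0.25 to 0.53 for sut1, and between larva and regurgitate plants from −1.03 to 0.18 for SWEET13b and −0.13 to 0.17 for sut1. In the difference between the responses they ran from −0.24 to 1.32 for SWEET13a, −1.34 to 0.44 for SWEET13b, −0.41 to 0.24 for SWEET13c, −0.76 to 0.0099 for sut1 and −1.08 to 1.87 for ivr2.

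Over all genes, DESeq2 against edgeR gave 273 against 0 between larva and control, 1633 against 11 between regurgitate and wounding, 1707 against 245 between regurgitate and control, 1647 against 239 between larva and regurgitate plants and 1308 against 233 for the difference between the responses. With no filter edgeR called 110 genes and with all 12 libraries 1788 between regurgitate and wounding plants, 354 and 1190 between regurgitate and control plants, and 366 and 626 between larva and regurgitate plants. With every feature, contigs included, it called 16657 features between wounding and control and 12739 between larva and wounding plants. Of these, 7630 and 7095 were maize genes, against 7438 and 8302 in the main fit. In that setting edgeR called 0 features between regurgitate plants and any other group. With the replicate block the calls fell to 0 between regurgitate and control and between larva and regurgitate plants, and with larva libraries 2 and 3 summed to 0 between larva and regurgitate plants. With 3 libraries a group, the spread between libraries limits what can be called, and incw3 and sus2 are limited by their counts as well.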
